A study of Rattus norvegicus with 33 samples.

Results

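The genes described here are the 10 genes of the rat MHC class II pathway proper: Cd74, Ciita, RT1-Ba, RT1-Bb, RT1-Da, RT1-Db1, RT1-DMa, RT1-DMb, RT1-DOa and RT1-DOb. They were taken by symbol from the platform annotation, counting only probe sets annotated to 1 symbol. Each had 1 such probe set, and all 10 passed the filter on low values. They are 10 of 18166 genes with such a probe set and 10 of the 10986 genes that were tested.

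The values come from whole 5th caudal mammary glands of females of the outbred Sprague-Dawley rat strain, measured on 33 arrays. The pre-pubertal stage was sampled on postnatal day 21 (n = 10), the peri-pubertal stage on day 42 (n = 5), the pubertal stage on day 63 (n = 5) and lactation on day 146, which was lactation day 28 (n = 3). Glands of parous and of nulliparous adults were taken at day 181 (n = 5 each). Every rat was a vehicle control and received olive oil by gavage, 0.5 mL until day 63 and 1 mL afterwards. Weaning is given as day 28. Rats of 1 stage were killed on the same day without regard to the estrous cycle. The series record counts 10 pre-pubertal rats, whereas the sample notes speak of 5 per stage, so arrays may share an animal, in which case errors and p-values come out smaller than they should. The labels give 3 batches. Batch 1 holds arrays of every stage except lactation, batch 2 holds all lactation arrays and part of the 3 youngest stages, and batch 3 holds 2 parous and 2 nulliparous arrays. Batch 3 alone was extracted with the Zymo kit, which was used for glands of a fattier nature, so kit and batch 3 cannot be told apart. Markers of the gland fitted the labels: the mean of 7 milk protein genes lay between 13.6 and 13.8 log2 units in lactating glands, against 9.96 and 12.1 as the lowest and highest value in pubertal glands.

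MHC class II molecules are pairs of an alpha and a beta chain that carry peptides to the surface of antigen-presenting cells, where CD4+ T cells read them. B cells, dendritic cells and macrophages are the usual carriers, and other cells can be induced to make them by interferon gamma. The coactivator Ciita promotes transcription of the other members, which it reaches through factors bound to the X and Y boxes of their promoters.

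Promoter sequences are shown for the 5 members in which the letters of both boxes stood in the known order, since this is the feature through which the set is known to be controlled together. RefSeq promoter windows (build GRCr8, 250 bases before to 50 after the start) were found for 8 of the 10 members. GCAAC, the core of the X box, was searched on both strands and occurred in 6 of 8 windows, against 35.065% of all 33469 windows. ATTGG, the core of the Y box, was searched in the same way and occurred in 8 of 8, against 37.494% of all windows. GCAAC followed by ATTGG on the gene's strand with at most 40 bases between them occurred in 5 of 8, against 0.753% of all windows, and 25 to 28 bases lay between the cores. The motifs do not overlap each other, and their letters were chosen after the windows had been seen. A match is a description of letters and no measured binding. In the lines below capitals mark the 2 cores. The stretches lie on chromosome 20 at chr20:4576973-4577026 (plus strand, RT1-Ba), chr20:4515325-4515378 (plus, RT1-Da), chr20:4560230-4560282 (minus, RT1-Db1), chr20:4758518-4758571 (minus, RT1-DOa) and chr20:4627594-4627644 (minus, RT1-DOb).
RT1-Ba: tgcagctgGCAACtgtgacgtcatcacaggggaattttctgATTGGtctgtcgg
RT1-Da: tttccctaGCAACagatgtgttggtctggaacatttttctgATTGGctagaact
RT1-Db1: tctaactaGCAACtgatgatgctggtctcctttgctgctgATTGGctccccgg
RT1-DOa: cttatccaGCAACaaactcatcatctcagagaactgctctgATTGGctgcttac
RT1-DOb: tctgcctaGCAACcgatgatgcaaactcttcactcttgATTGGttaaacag

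All values below are the deposited log2 values, and a level of 1 probe set is not set against that of another. Group values are means ± SD of the arrays as deposited. Log2 differences and their SEs come from a limma model with 6 stages and 3 batches, so they can differ from the differences of the plain means. A gene was called, and is said to have risen or fallen, at an adjusted p under 0.05 (limma, two-sided, Benjamini-Hochberg over 10986 genes). Probes of related class II genes can hybridise to each other's transcripts, which was not tested here.

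RT1-Da and RT1-Db1 encode the alpha and beta chain of the rat counterpart of human HLA-DR. RT1-Da averaged 11.5 ± 0.76 in pre-pubertal, 11.1 ± 0.24 in peri-pubertal, 11.4 ± 0.25 in pubertal, 11.1 ± 0.52 in lactating, 11.8 ± 0.72 in parous and 11.8 ± 0.22 in nulliparous glands. RT1-Db1 averaged 8.97 ± 0.76, 8.56 ± 0.28, 8.92 ± 0.24, 8.29 ± 0.52, 9.44 ± 0.91 and 9.33 ± 0.26 in the same order of stages. Both were most variable in pre-pubertal and parous glands, where several arrays lay above every peri-pubertal array. RT1-Ba and RT1-Bb encode the chains of the counterpart of HLA-DQ. RT1-Ba averaged 9.64 ± 0.91 in pre-pubertal, 9.29 ± 0.35 in peri-pubertal, 9.63 ± 0.32 in pubertal, 8.86 ± 0.43 in lactating, 10.1 ± 0.65 in parous and 9.92 ± 0.54 in nulliparous glands. RT1-Bb averaged 7.93 ± 0.55, 7.53 ± 0.20, 7.83 ± 0.22, 7.36 ± 0.26, 8.44 ± 0.82 and 8.22 ± 0.34 in that order. None of the 4 chain genes passed the test over all stages, with adjusted p between 0.442 and 0.685 in limma's F test.

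Cd74 is the invariant chain, which blocks the peptide groove of new class II molecules and sorts them to endosomes. It averaged 13.0 ± 0.50 in pre-pubertal, 12.7 ± 0.16 in peri-pubertal, 13.0 ± 0.16 in pubertal, 12.5 ± 0.29 in lactating, 12.9 ± 0.58 in parous and 12.8 ± 0.63 in nulliparous glands. RT1-DMa and RT1-DMb form the exchange factor that loads peptides in endosomes. RT1-DMa averaged 10.7 ± 0.65, 10.3 ± 0.20, 10.3 ± 0.35, 10.1 ± 0.18, 10.9 ± 0.41 and 10.8 ± 0.26 in the same order, and RT1-DMb averaged 9.86 ± 0.73, 9.29 ± 0.14, 9.61 ± 0.20, 9.42 ± 0.31, 10.0 ± 0.55 and 10.1 ± 0.26. Every stage mean of these 3 genes lay within the range of the pre-pubertal arrays.

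RT1-DOa and RT1-DOb form the inhibitor of the DM exchange factor, which is known chiefly from B cells. RT1-DOa averaged 7.16 ± 0.58 in pre-pubertal, 6.52 ± 0.52 in peri-pubertal, 6.61 ± 0.31 in pubertal, 6.14 ± 0.25 in lactating, 7.81 ± 1.28 in parous and 7.12 ± 0.65 in nulliparous glands. RT1-DOb averaged 7.95 ± 0.82, 6.79 ± 0.56, 7.19 ± 0.51, 6.38 ± 0.06, 7.64 ± 1.20 and 7.05 ± 0.91 in that order. Ciita averaged 7.81 ± 0.77, 6.84 ± 0.47, 7.15 ± 0.31, 6.71 ± 0.52, 7.34 ± 0.82 and 7.07 ± 0.83 in that order. These 3 genes exceeded the floor of 7.65 used for the filter in only 5, 12 and 11 of the 33 arrays, so many of their values are low and have no stated detection limit.

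**Figure D1:**
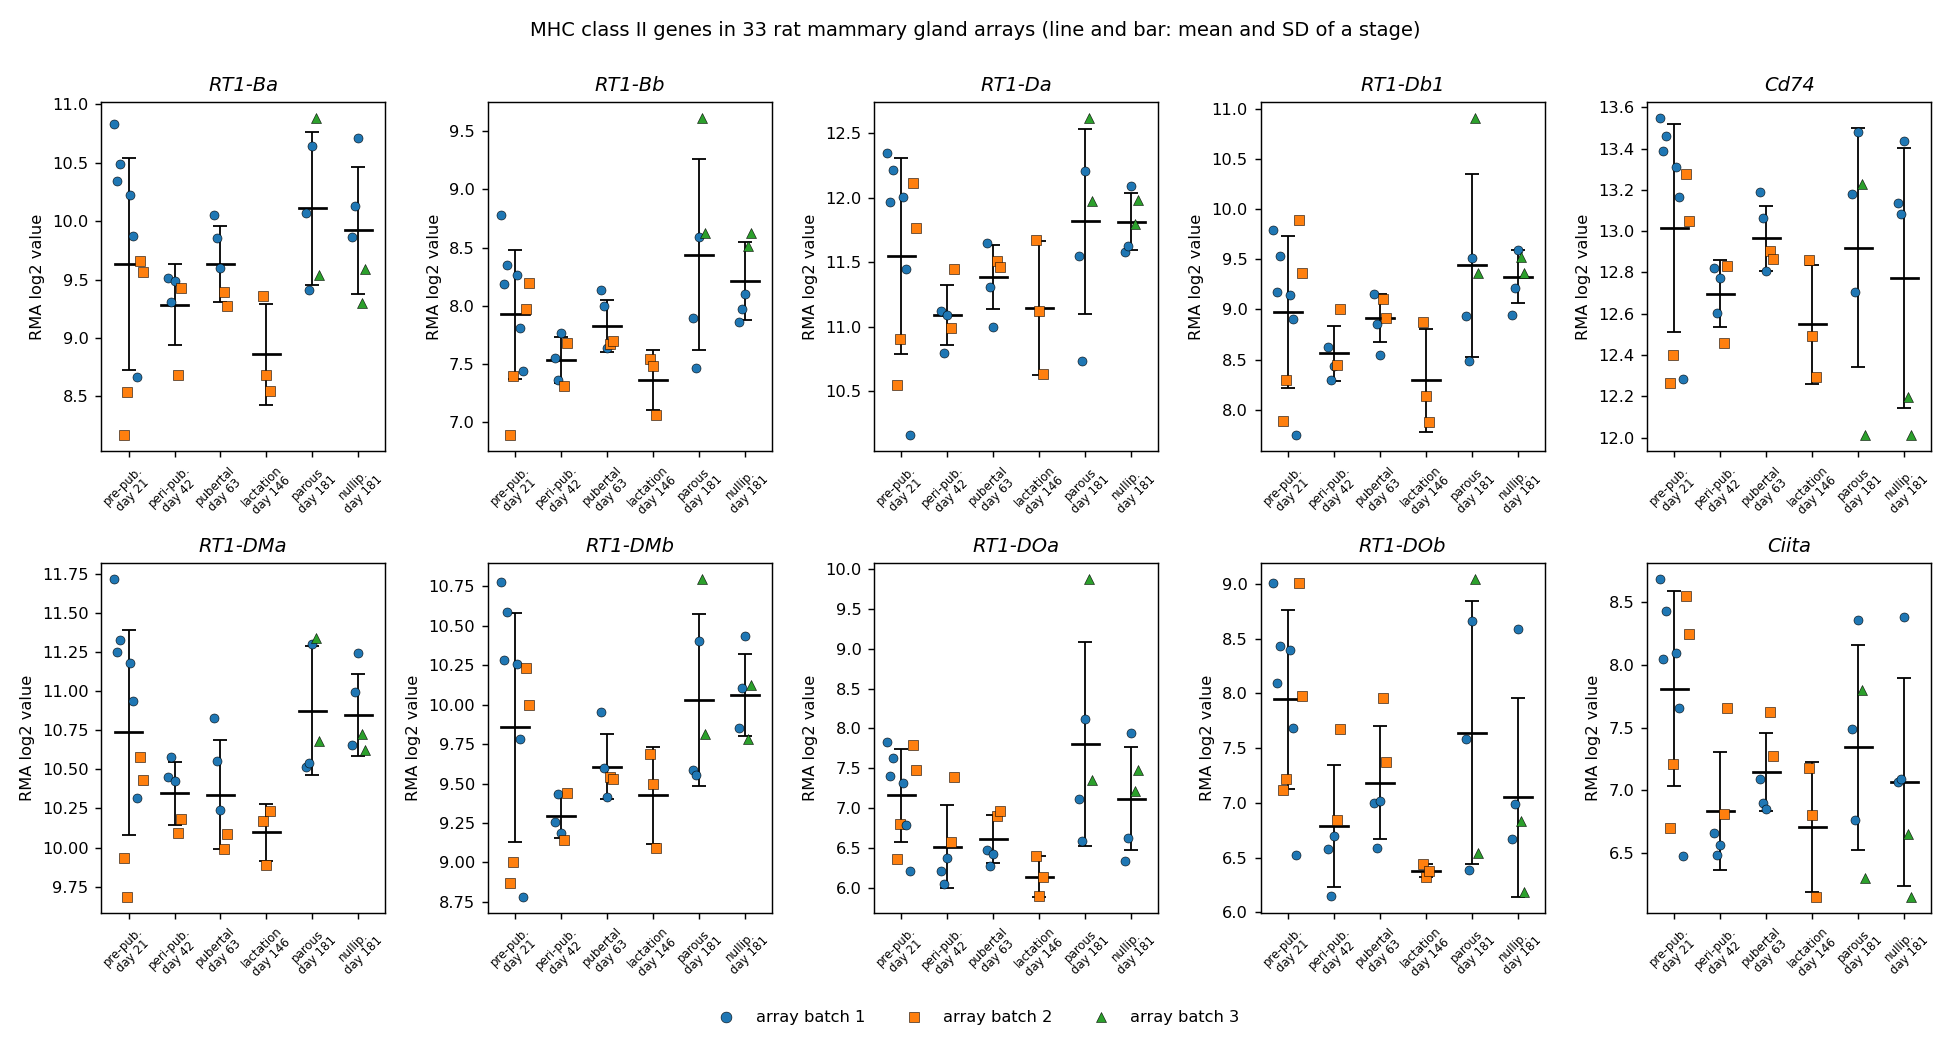
Deposited RMA log2 value (vertical axis) of each of the 10 genes by stage (horizontal axis), 1 point per array with colour and shape for the batch, and a line and bar for the mean and SD of a stage. RT1-DOb sits at 6.38 ± 0.06 in the 3 lactating glands. Pre-pubertal and parous arrays spread widely for most genes, and nulliparous arrays for Cd74, Ciita and RT1-DOb (SD 0.63, 0.83 and 0.91).

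Adjusted for batch, the order of the stages was similar but not the same between members. Parous glands were highest for 6 genes, pre-pubertal glands for Ciita, RT1-DMa and RT1-DOb, and nulliparous glands for RT1-DMb. Peri-pubertal glands were lowest for Cd74, RT1-Ba, RT1-Bb, RT1-Da and RT1-DMb, lactating glands for Ciita, RT1-Db1, RT1-DOa and RT1-DOb, and pubertal glands for RT1-DMa. No pair of neighbouring stages in these orders differed for any of the 10 genes, the smallest adjusted p being 0.384. In the F test over all 6 stages 1 of 10 genes was called, RT1-DOb (adjusted p = 0.0339), against 65.9% of all genes tested. RT1-DOa (adjusted p = 0.0565) and Ciita (adjusted p = 0.0580) missed the threshold. The count was 0 without any 1 of pre-pubertal array 9, peri-pubertal arrays 1 and 2 and the 3 lactation arrays. It was 3 without any 1 of pre-pubertal arrays 4, 5 and 8, peri-pubertal array 5, nulliparous array 3 and parous arrays 2, 4 and 5.

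Peri-pubertal against pre-pubertal glands asked how the set differed across the first phase of gland growth. Weaning on day 28 also lies between these stages, so growth and weaning cannot be told apart. Ciita and RT1-DOb fell, and the other 8 genes had negative differences that did not pass the test. Ciita was at 6.66, 6.49, 6.57, 6.81 and 7.65 in the 5 peri-pubertal glands, against a lowest value of 6.48, a median of 8.07 and a highest value of 8.68 in the 10 pre-pubertal glands. Only peri-pubertal array 5 came near the pre-pubertal median, and the groups overlapped because a few pre-pubertal arrays were low. Ciita fell by 0.97 ± 0.34 on the log2 scale (SE, 1.96-fold, adjusted p = 0.0292). RT1-DOb was at 6.58, 6.15, 6.70, 6.85 and 7.67 in peri-pubertal glands, against 6.52, 8.04 and 9.01 as the lowest, median and highest value in pre-pubertal glands. Array 5 was again the highest of its stage, and the groups overlapped. RT1-DOb fell by 1.16 ± 0.42 (SE, 2.23-fold, adjusted p = 0.0355).

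Over the whole set 0 genes rose and 2 of 10 fell, against 17.1% of all genes tested that rose and 15.2% that fell. The count depended on the model: it was 0 of 10 without a batch term, where 12.1% of all genes were called in either direction, and 10 of 10, all lower, with array weights, where 45.5% were. The median difference of the members was -0.43, with a range between -1.16 and -0.32, against a median of -9.6e-05 over all genes. Among members that were not called, RT1-DOa differed by -0.64 ± 0.34 (adjusted p = 0.154), RT1-DMb by -0.57 ± 0.26 (adjusted p = 0.0927) and Cd74 by -0.32 ± 0.20 (adjusted p = 0.231). Within batch 1 the differences were -1.32 for Ciita (adjusted p = 0.0348) and -1.55 for RT1-DOb (adjusted p = 0.0456). Within batch 2 they were -0.44 (adjusted p = 0.666) and -0.57 (adjusted p = 0.532). No member was called without any 1 of pre-pubertal arrays 1, 3 and 9 or peri-pubertal arrays 1, 2, 3 and 4. One member was called without pre-pubertal array 2 or 6, and 4 were called without pre-pubertal array 8. That array had the lowest values of its stage for Ciita, RT1-DOb, RT1-DOa, RT1-Da, RT1-Db1 and RT1-DMb, the lowest mean of the B cell list, 6.96, and the highest mean of the luminal epithelium list, 9.43.

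Markers of lymphocytes, epithelium and fat moved in the same comparison. The B cell list, 15 measured genes such as Cxcr5 and Spib, had 14 members that fell and 0 that rose. Its mean lay between 6.88 and 8.56 in peri-pubertal glands, against 6.96 and 9.76 as lowest and highest in pre-pubertal glands. Cxcr5, which guides B cells to follicles, fell by 1.77 ± 0.47 (SE, adjusted p = 0.00426), and Spib, a transcription factor of B cells, fell by 1.90 ± 0.55 (SE, adjusted p = 0.00934). Ebf1, of the same list but also expressed by adipocytes, fell by 0.43 ± 0.08 (adjusted p = 0.000125). Of 14 T cell genes 13 fell, and Cd3g, a chain of the T cell receptor complex, fell by 3.44 ± 0.67 (adjusted p = 0.000259). The mean of the T cell list lay between 6.60 and 7.89 in peri-pubertal glands, against 6.65 and 10.1 in pre-pubertal glands. Of 9 dendritic cell genes 3 fell and 1 rose. Ccl22 fell by 2.37 ± 0.49 (adjusted p = 0.000509) and Ccr7, the receptor that takes dendritic and naive T cells to lymph nodes, by 2.23 ± 0.50 (adjusted p = 0.00101). The dendritic cell mean lay between 6.85 and 7.32 in peri-pubertal glands, against 6.77 and 8.08 in pre-pubertal glands. Of 15 macrophage genes 3 rose and 1 fell, and their mean lay between 9.12 and 9.56 in peri-pubertal glands, against 8.72 and 9.41 in pre-pubertal glands. Of 12 luminal epithelium genes 11 rose and 0 fell, with a median difference of 1.51 over the list. Their mean lay between 9.33 and 9.95 in peri-pubertal glands, against 6.67 and 9.43 in pre-pubertal glands. Of 11 white adipocyte genes 10 fell and 0 rose, and their mean lay between 10.9 and 11.5 in peri-pubertal glands, against 11.4 and 12.1 in pre-pubertal glands. The part of any of these cells in the class II differences was not tested. The B cell slopes, the fit with the B cell mean as a covariate and the shares of variation given below are descriptions. In whole glands fewer cells of a type and less RNA per cell cannot be told apart.

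Other genes of the pathway did not share 1 direction. Of 10 genes for peptide loading and turnover 6 rose and 2 fell in peri-pubertal glands. The endosomal proteases Ctsd, Lgmn and Ctsb rose by 0.65 ± 0.09, 0.57 ± 0.09 and 0.35 ± 0.06 (SE, adjusted p = 3.96e-06, 1.32e-05 and 0.000106). Of 8 transcription factors of class II promoters, Nfya, a subunit of the factor that binds the Y box, rose by 0.38 ± 0.08 (adjusted p = 0.000668), Zxdc fell by 0.24 ± 0.08 (adjusted p = 0.0274), and 6 were not called. Of 5 costimulation genes tested 3 fell, among them Cd80 by 1.00 ± 0.31 (adjusted p = 0.0128) and Cd86 by 0.75 ± 0.26 (adjusted p = 0.0251), both ligands of CD28. Of 10 interferon gamma pathway genes tested Irf2 and Socs1 fell, by 0.37 ± 0.11 (adjusted p = 0.00838) and 0.39 ± 0.15 (adjusted p = 0.0406), and none rose. Of 11 genes of class I antigen processing 1 fell, Nlrc5, the class I counterpart of Ciita, by 0.80 ± 0.29 (adjusted p = 0.0330).

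No member was called in the next comparisons. In pubertal against peri-pubertal glands 0 of 10 rose or fell, against 0.719% of all genes that rose and 0.501% that fell. Their differences had a median of 0.30 and lay between -0.0092 and 0.40, with 9 of 10 positive and adjusted p of at least 0.621. Peri-pubertal array 5 and pubertal arrays 4 and 5 all came from batch 2 and had the highest RT1-DOb values of their stages, at 7.67, 7.96 and 7.37. In nulliparous against pubertal glands 0 of 10 were called, against 1.88% up and 2.39% down over all genes. The differences had a median of 0.18 and lay between -0.09 for RT1-Bb and 0.31 for Ciita, with adjusted p of at least 0.670. At an unadjusted p under 0.05 the count was also 0 in both comparisons. Of the pathway lists, Nfya fell by 0.37 ± 0.09 in pubertal against peri-pubertal glands (adjusted p = 0.0409). Ctsh fell by 0.43 ± 0.11 (adjusted p = 0.0277) and Lgmn by 0.39 ± 0.11 (adjusted p = 0.0419) in nulliparous against pubertal glands.

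Lactating against pubertal glands showed no called member, although 23.8% of all genes rose and 16.9% fell. The unadjusted count at p under 0.05 was also 0. RT1-DOb was at 6.44, 6.32 and 6.38 in the 3 lactating glands, against 6.9999, 6.59, 7.02, 7.96 and 7.37 in pubertal glands. The groups did not overlap for RT1-DOb, and its batch-adjusted difference was -0.98 ± 0.60 (adjusted p = 0.197). RT1-Bb also did not overlap, at 7.54, 7.48 and 7.06 in lactating glands against 7.64 to 8.13 in pubertal glands, and differed by -0.26 ± 0.30 (adjusted p = 0.508). The share of all genes whose groups did not overlap was not computed, so these separations are given as a description only. Over the set 8 of 10 differences were negative, with a median of -0.29, against 0.06 over all genes. A fit of only these 2 stages called RT1-DOa and RT1-DOb lower in lactating glands, with differences of -0.80 and -1.28. These are 2 of 10 members, against 28.8% of all genes called in either direction in that fit.

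Some other genes of the pathway were called in lactating against pubertal glands. Ctsd rose by 0.94 ± 0.13 (adjusted p = 1.68e-06) and Lgmn by 0.78 ± 0.12 (adjusted p = 1.19e-05), while Ctsh fell by 0.52 ± 0.13 (adjusted p = 0.00156). Of the 10 loading and turnover genes 3 rose and 1 fell. Ifngr2 and Ifngr1, the chains of the interferon gamma receptor, rose by 0.75 ± 0.15 (adjusted p = 0.000153) and 0.39 ± 0.10 (adjusted p = 0.00260), and Irf2 rose by 0.51 ± 0.15 (adjusted p = 0.00869). Rfxank, part of the complex that binds the X box, rose by 0.37 ± 0.10 (adjusted p = 0.00529), and Nfya by 0.34 ± 0.12 (adjusted p = 0.0185). The B cell list had 1 of 15 genes called, Ebf1, which fell by 1.08 ± 0.11 (adjusted p = 1.53e-08) and which adipocytes also express. The mean of the list lay between 6.86 and 7.01 in lactating glands, against 6.99 and 8.37 in pubertal glands. Of 14 T cell genes 0 were called. Of 9 dendritic cell genes 2 rose, Itgax by 1.18 ± 0.18 (adjusted p = 9.08e-06) and Batf3 by 0.80 ± 0.22 (adjusted p = 0.00485). Clec10a, of the same list, fell by 0.97 ± 0.24 (adjusted p = 0.00228). Of 15 macrophage genes 2 rose and 2 fell.

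Parous against lactating glands compared glands after and during milk production. RT1-DOa rose, and the other 9 members had positive differences that did not pass the test. RT1-DOa was at 7.11, 6.59, 8.12, 9.87 and 7.35 in parous glands, against 6.40, 5.89 and 6.14 in lactating glands. Every parous array lay above every lactating one, and parous array 4 stood far above the rest. The same separation held for RT1-Ba and RT1-DMa, which were not called (adjusted p = 0.361 and 0.832). The share of all genes so separated was not computed. RT1-DOa rose by 1.61 ± 0.56 (SE, 3.05-fold, adjusted p = 0.0265). RT1-DOb was at 7.58, 6.39, 8.66, 9.04 and 6.54 in parous glands, against 6.44, 6.32 and 6.38 in lactating glands. The groups overlapped by parous array 2, and the difference was 1.69 ± 0.69 (adjusted p = 0.0605). Ciita was at 7.49, 6.76, 8.35, 7.80 and 6.30 in parous glands, against 7.18, 6.80 and 6.15 in lactating glands, and differed by 1.13 ± 0.56 (adjusted p = 0.121).

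One of 10 members rose and 0 fell, against 12.1% of all genes that rose and 20.7% that fell. The median difference was 0.51, with a range between 0.096 and 1.69, against -0.061 over all genes. These 2 stages share no batch, so this difference rests on batch terms estimated from the other stages. The difference of RT1-DOa was 1.41 without batch 3 (adjusted p = 0.0311) and 1.37 without parous array 4 (adjusted p = 0.0239). A fit of these 2 stages alone, in which stage and batch cannot be told apart, gave 1.13 (adjusted p = 0.161) and called RT1-Ba (1.18, adjusted p = 0.0447), whose batch 2 term is given below, in place of RT1-DOa. That fit called 38.7% of all genes in either direction. The call was also lost without lactation array 2 (adjusted p = 0.0751), lactation array 3 (adjusted p = 0.0538) or parous array 3 (adjusted p = 0.0787), and 2 members were called without parous array 2 or 5.

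Of the B cell list 5 of 15 genes rose in this comparison and 0 fell. The smallest adjusted p was that of Ebf1, which adipocytes also express and which rose by 1.12 ± 0.13 (adjusted p = 2.34e-07). Ms4a1, which encodes CD20, rose by 3.45 ± 1.22 (adjusted p = 0.0296), and Cr2, a complement receptor of B cells, by 4.10 ± 1.35 (adjusted p = 0.0197). The list mean lay between 6.95 and 9.55 in parous glands, against 6.86 and 7.01 in lactating glands. Of 14 T cell genes 1 rose, Cd3g, by 2.91 ± 1.10 (adjusted p = 0.0413), with list means between 7.18 and 10.2 in parous glands, against 7.16 and 7.51 in lactating glands. In parous array 4 the B cell mean was 9.53. Of 9 dendritic cell genes 1 rose, Ccl22, by 2.38 ± 0.81 (adjusted p = 0.0240), and 2 fell. The latter were Itgax, by 1.05 ± 0.21 (adjusted p = 0.000357), and Batf3, by 0.90 ± 0.25 (adjusted p = 0.00748). Of 15 macrophage genes 3 rose and 2 fell. Of 12 luminal epithelium genes 9 fell and 0 rose, with list means between 9.30 and 9.66 in parous glands, against 10.17 and 10.99 in lactating glands. Of 11 white adipocyte genes 7 rose and 0 fell, with list means between 10.5 and 11.1 in parous glands, against 10.0 and 10.2 in lactating glands. The part of these cells in the RT1-DOa difference was not tested, and the fit with the B cell mean as a covariate given below is a description. The loading and turnover list had 4 of 10 genes that fell and 0 that rose, among them Lgmn by 1.31 ± 0.14 (adjusted p = 7.89e-08), Ctsd by 1.08 ± 0.15 (adjusted p = 3.48e-06) and Ctsl by 1.03 ± 0.21 (adjusted p = 0.000438). Of the interferon gamma list 3 of 10 fell, among them Cxcl9, a chemokine induced by interferon gamma, by 1.10 ± 0.37 (adjusted p = 0.0226).

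Parous against nulliparous glands of the same age showed 0 called members, against 0.0091% of all genes, or 1 gene, up and 0.0091% down. The unadjusted count was also 0. RT1-DOa in nulliparous glands was at 6.34, 6.63, 7.95, 7.21 and 7.48, which overlapped the parous values given above, and the difference was 0.69 ± 0.39 (adjusted p = 0.845). The other members differed by between -0.030 for RT1-DMb and 0.59 for RT1-DOb, with a median over the set of 0.17. At an SE of 0.39 for RT1-DOa the data do not show that parous and nulliparous glands are alike.

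**Figure D2:**
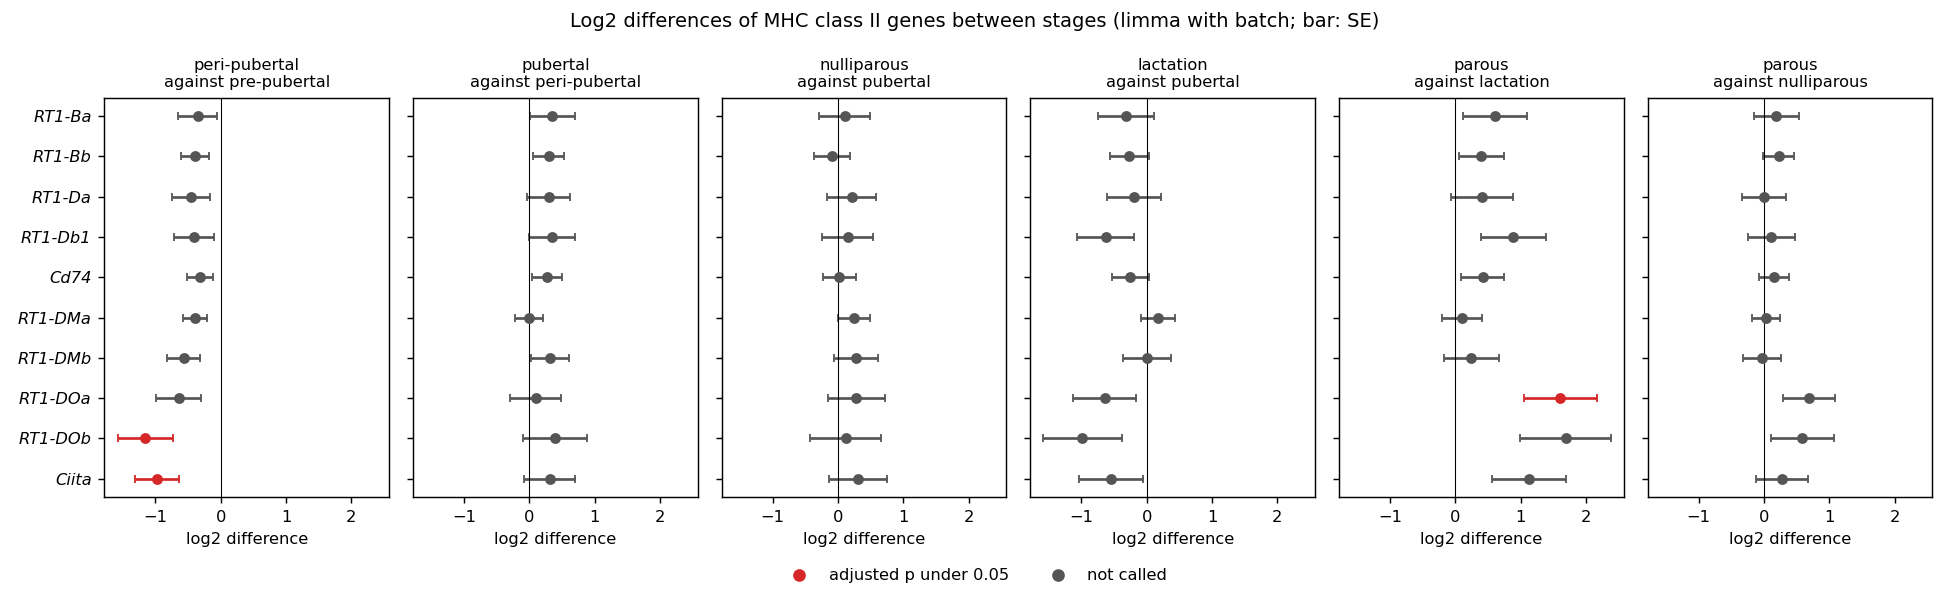
Batch-adjusted log2 difference (horizontal axis, point) and SE (bar) of each gene (vertical axis) in 6 comparisons, with called genes in red. Ciita and RT1-DOb are called in peri-pubertal against pre-pubertal glands (-0.97 and -1.16) and RT1-DOa in parous against lactating glands (1.61).

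Some members had batch terms as large as their stage differences, and not in 1 direction. In each direction a smaller share of the members than of all genes was called for batch. In batch 2 against batch 1, RT1-Ba was lower, with a difference of -0.77 ± 0.25 (SE, adjusted p = 0.0102), and so was RT1-DMa, with -0.69 ± 0.15 (adjusted p = 0.000353). No member was called higher, against 21.4% of all genes higher and 35.2% lower. In batch 3 against batch 1, Cd74 was lower, with a difference of -0.81 ± 0.23 (adjusted p = 0.00248), and RT1-Bb was higher by 0.86 ± 0.25 (adjusted p = 0.00241). Over all genes 33% were higher and 44.4% lower in batch 3. Ciita differed by -0.80 ± 0.40 (adjusted p = 0.0724) and RT1-DOa by 0.86 ± 0.40 (adjusted p = 0.0527) without a call.

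The opposite terms of Cd74 and RT1-Bb can be seen in single adult arrays. Cd74 was at 13.23 and 12.01 in parous arrays 4 and 5, extracted with the Zymo kit, against 13.18, 12.71 and 13.48 in parous arrays 1, 2 and 3. It was at 12.20 and 12.01 in nulliparous arrays 4 and 5, against 13.14, 13.08 and 13.44 in arrays 1, 2 and 3. Of the 4 Zymo arrays, 3 were the lowest adult arrays for Cd74. RT1-Bb was at 9.62 and 8.62 in parous arrays 4 and 5, against 7.90, 7.46 and 8.59 in the other parous arrays. It was at 8.52 and 8.62 in nulliparous arrays 4 and 5, against 7.86, 7.97 and 8.10 in the others. For RT1-Bb the Zymo arrays were the highest of each adult stage.

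The members varied together between arrays of 1 stage. After stage and batch had been removed, Pearson's r over the 33 arrays lay between 0.81 and 0.98 for the 45 pairs of members, with a median of 0.91. Adjusted for batch alone it lay between 0.76 and 0.97, with a median of 0.88. These arrays share stages and batches, and the correlations are given as a description. The gene outside the set most like its mean was Laptm5, a lysosomal membrane protein of blood cells, with r = 0.96 adjusted for batch and 0.98 after stage and batch had been removed. Next in the first measure came Jaml, Arrb2, Map4k1, Dok2, Cd37, Dapp1 and Selplg, with r between 0.94 and 0.96. In the second they were Fmnl1, Arhgap9, Itgb2, Nlrp1a, Slc9a7, Arrb2 and Map4k1, with r between 0.96 and 0.97. Of all these only Cd37 is in the B cell list.

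Within stage and batch every member followed the mean of the B cell list. The slope was positive and called for 10 of 10 genes, against 14.6% of the 10971 genes tested, and its median was 0.51, against -0.015 over all genes. RT1-DOb had the steepest slope, 0.83 ± 0.05 (SE, adjusted p = 1.63e-13), followed by RT1-DOa and Ciita, each at 0.65 ± 0.05 (adjusted p = 2.21e-11 and 5.81e-11). RT1-Ba (0.55 ± 0.06), RT1-Db1 (0.52 ± 0.07), RT1-Da (0.49 ± 0.07) and RT1-DMb (0.43 ± 0.06) lay between. Cd74 (0.35 ± 0.04), RT1-Bb (0.34 ± 0.05) and RT1-DMa (0.30 ± 0.05) had the shallowest. The 3 genes with steep slopes are those that were called between stages. They are also the members that exceeded the floor of 7.65 in the fewest arrays, 12 for RT1-DOb, 5 for RT1-DOa and 11 for Ciita. A link between slopes, calls and low values was not tested.

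The slope held in parts of the data. In pre-pubertal arrays alone 10 of 10 were called, against 20.3% of all genes called in either direction, with a median slope of 0.77. In batch 1 alone 10 were called, against 20.3% of all genes, with a median of 0.45. In batch 2 alone 8 were called, against 4.58% of all genes, with a median of 0.70, and RT1-Bb (adjusted p = 0.0768) and RT1-DMa (adjusted p = 0.166) were not.

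Arrays with a high B cell mean were found in several stages. It lay between 6.96 and 9.76 in pre-pubertal glands, with a median of 9.15, and between 6.86 and 7.01 in lactating glands. It was 8.50, 6.95, 9.55, 9.53 and 7.07 in parous arrays 1 to 5, against 7.06, 7.10, 9.92, 7.05 and 7.10 in nulliparous arrays 1 to 5. Nulliparous array 3 was thus the only high one of its stage, and it had the highest Ciita, 8.38, and RT1-DOb, 8.59, among nulliparous glands.

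**Figure D3:**
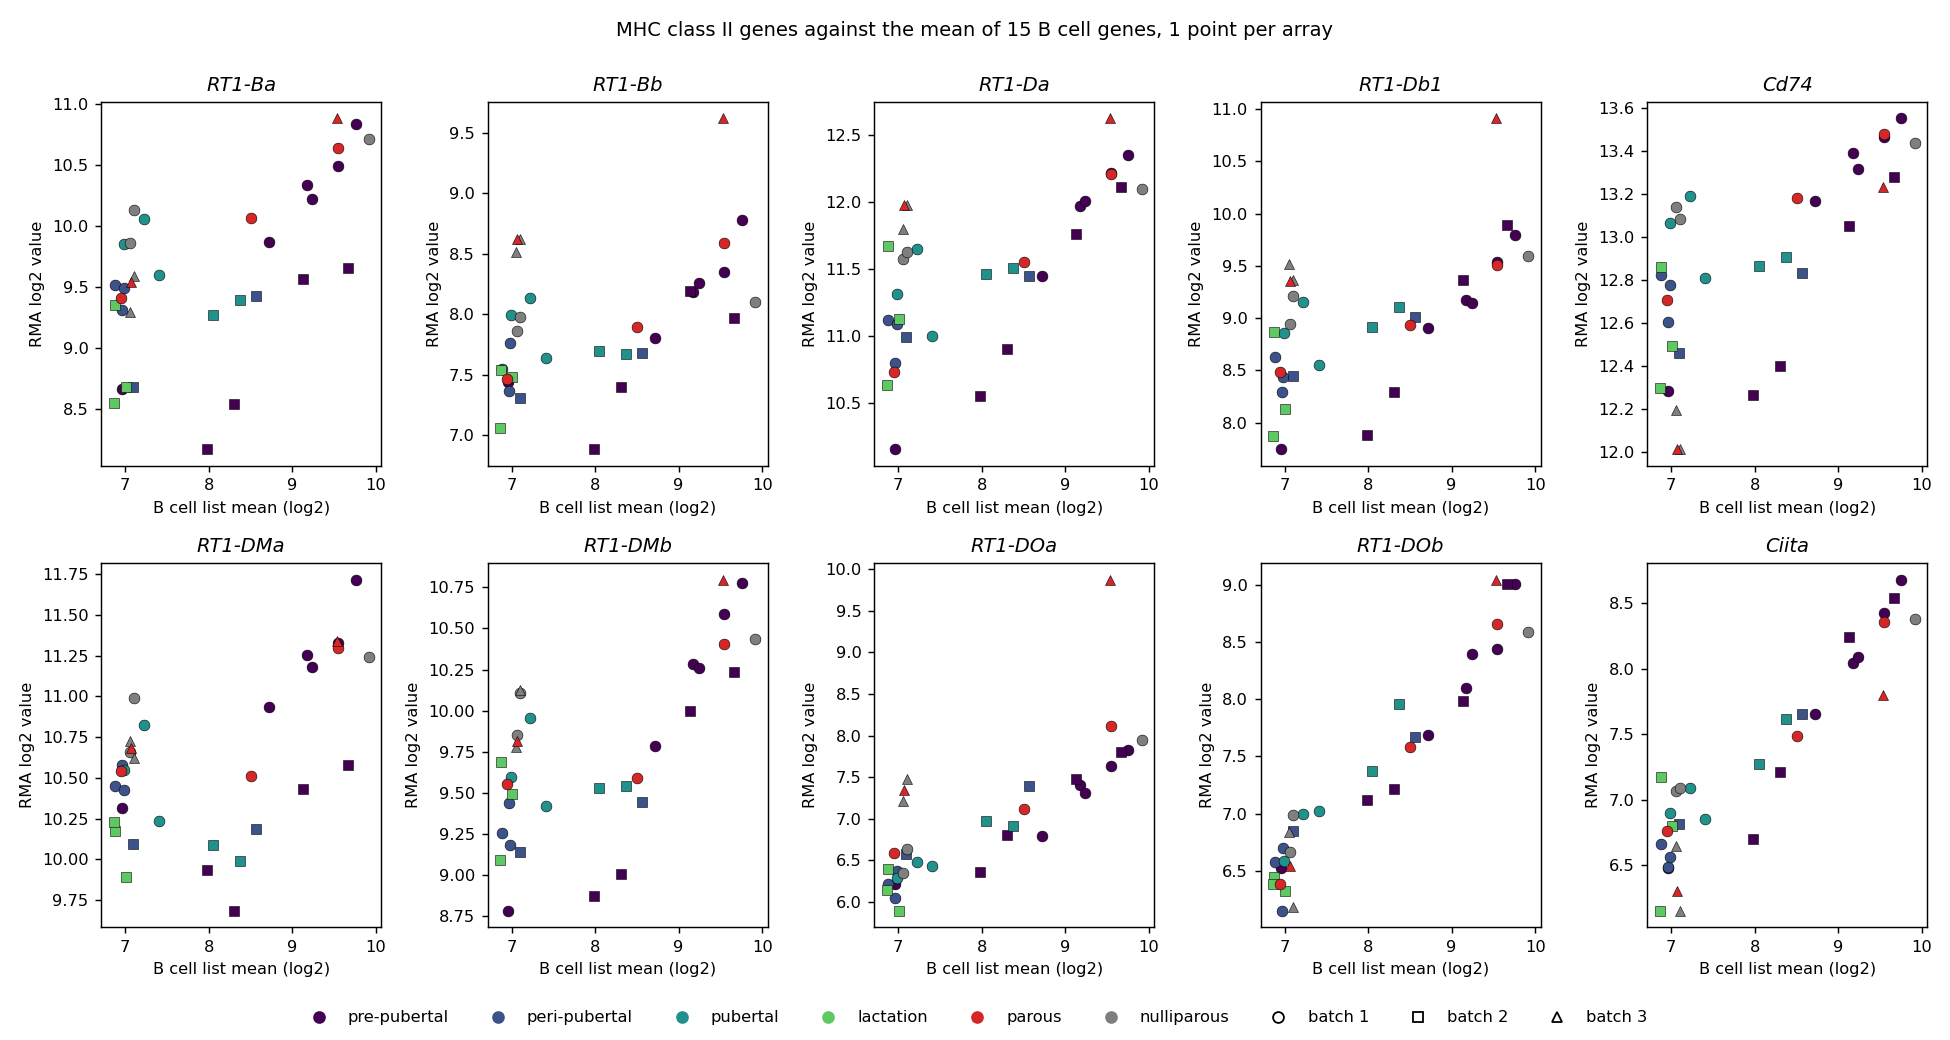
Log2 value of each gene (vertical axis) against the mean log2 value of 15 B cell genes (horizontal axis), 1 point per array, with colour for the stage and shape for the batch. RT1-DOb, with a slope of 0.83, lies close to 1 line across stages. For Cd74, with a slope of 0.35, 3 Zymo arrays are the lowest, at 12.01, 12.01 and 12.20, with pre-pubertal array 4 next at 12.26.

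With the B cell mean as a further covariate the stage differences changed. In peri-pubertal against pre-pubertal glands all 10 differences became positive, with a median of 0.18, and 1 was called, RT1-Ba at 0.50 (adjusted p = 0.0402), against 17.8% of all genes called in either direction. Ciita then stood at 0.041 and RT1-DOb at 0.14. In parous against lactating glands the median was -0.28 and no member was called, against 35.7% of all genes, with RT1-DOa at 0.29 (adjusted p = 0.359). In lactating against pubertal glands 1 was called, RT1-DMa at 0.46 (adjusted p = 0.0284), against 46.5% of all genes. The B cell mean itself differed between stages, averaging 8.85 in pre-pubertal, 7.30 in peri-pubertal and 6.91 in lactating glands. Only the B cell list was fitted as a covariate, so this fit cannot assign a part to B cells.

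The B cell list was not the only list that the members followed. As a share of the members' variation left after stage and batch, a median of 30.2% remained with the B cell mean in the model, 17.4% with T cells, 12.6% with dendritic cells and 27.1% with plasma cells. It was 38.2% with the interferon gamma pathway, 58.4% with macrophages, 67.7% with luminal epithelium, 79.5% with white adipocytes and 99.6% with skeletal muscle. With B cells it was lowest for RT1-DOb, at 9.16%, and highest for RT1-Bb, at 38.8%, and with dendritic cells it was lowest for RT1-Ba, at 6.39%. The means of the lymphocyte lists move together between arrays, these shares were computed after the slopes had been seen, and they carry no test. Which of these cells carried the class II transcripts was not tested.

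**Figure D4:**
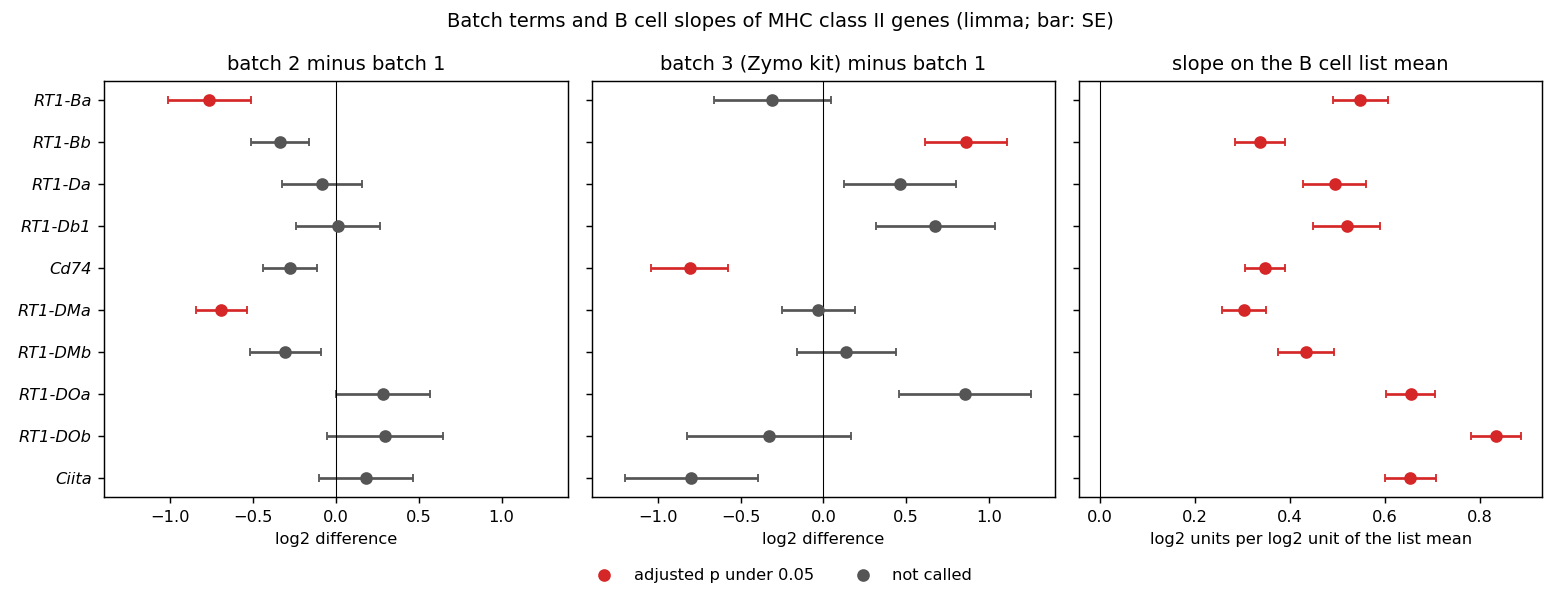
Batch terms against batch 1 (left and middle, log2 difference with SE on the horizontal axis) and slope on the B cell list mean within stage and batch (right, with SE) for each gene (vertical axis), with called values in red. In batch 3 Cd74 is at -0.81 and RT1-Bb at 0.86, and all 10 slopes lie above 0, the highest being RT1-DOb at 0.83.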

How the data were processed

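Total RNA of 33 whole mammary glands was hybridised to Affymetrix whole-transcript arrays. The deposited table gives log2 values of 36685 probe sets. The authors used Affymetrix Expression Console and RMA (background correction, normalization across arrays, summary of probes), per the submitters' processing notes, which name no versions. RMA brings the arrays to 1 distribution, so a change shared by most genes would not be seen. Precision is limited by how many arrays a stage has. Of the probe sets 18511 had 1 symbol, 575 several and 17599 none listed, and the first kind gave 18166 genes, with the probe set of highest mean kept. Genes above 7.645, the median over these probe sets, in at least 3 arrays were tested (10986).

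Stage, batch and kit were taken from the labels. limma 3.58.1 in R 4.3.3 fitted 6 stages and 3 batches over all arrays with an intensity trend, and Benjamini-Hochberg adjustment ran over all genes tested. The slope on the B cell mean used the same model without the list's own genes. The 14 gene lists held 160 genes, of which 148 were matched. The procedure was tested on simulated data with noise drawn independently for each gene and array. The members vary together, so that simulation does not cover counts over the set. The members and lists were chosen with earlier results of these data known. All members are described; from other lists up to 3 called genes of smallest adjusted p in a comparison were named, and the 8 genes most like the members' mean. Replicates were not counted as paired. Alternatives are in the closing section. Figures were drawn with matplotlib 3.10.9.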

Additional observations from a re-analysis of the deposited data

Results flagged for a closer look

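Of 50 sets of arrays (each gene in each stage except lactation, which has too few arrays), 2 held an array whose gap to its nearest neighbour was large against the whole range of the stage; chance gives about 1 in 20. Ciita in peri-pubertal array 5 was at 7.65, with the next highest array at 6.81. RT1-Ba in peri-pubertal array 4 was at 8.68, with the next lowest array at 9.31.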

How the results depend on the processing

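Counts of called members changed as follows. Without a batch term 0 were called in peri-pubertal against pre-pubertal glands, 4 in parous against lactating glands and 3 over all stages; batch as a random block gave 3 over all stages. A filter at the 75th percentile, which tested 6 members, gave 0 in all 3. Array weights gave 10, 3 and 9, an adjusted p under 0.01 gave 0, 0 and 0, and the B cell mean as covariate gave 1, 0 and 2, plus 1 in lactating against pubertal glands. A fit of only the stages compared gave 1 in peri-pubertal against pre-pubertal and 2 in lactating against pubertal glands. Batch 2 alone gave 0 in peri-pubertal against pre-pubertal glands, and leaving out batch 3 gave 2 over all stages. With 1 array left out the counts lay between 0 and 4 in peri-pubertal against pre-pubertal glands, between 0 and 2 in parous against lactating glands and between 0 and 3 over all stages.

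With the B cell mean as covariate signs turned in peri-pubertal against pre-pubertal glands for Cd74 (0.22), Ciita (0.041), RT1-Ba (0.50), RT1-Bb (0.13), RT1-Da (0.31), RT1-Db1 (0.39), RT1-DMa (0.082), RT1-DMb (0.11), RT1-DOa (0.37) and RT1-DOb (0.14). In parous against lactating glands they turned for Cd74 (-0.28), Ciita (-0.19), RT1-Ba (-0.50), RT1-Bb (-0.29), RT1-Da (-0.59), RT1-Db1 (-0.16), RT1-DMa (-0.51) and RT1-DMb (-0.63). RT1-Ba stood at 0.073 in batch 2 alone in peri-pubertal against pre-pubertal glands. RT1-DMa in parous against lactating glands stood at -0.0070 without batch 3, at -0.0079 without lactation array 2 and at -0.053 without parous array 3, the lowest value with 1 array left out, the highest being 0.23. The cause was not tested. In these 2 comparisons 431 of 502 values kept direction and side of the threshold, 29 lost a call, 20 gained one and 22 turned sign. In the other 4, 83 of 944 values turned sign and 0 of those were called, while 3 gained a call. The share of all genes called lay between 5.85% (batch 2 alone) and 45.5% (array weights) in peri-pubertal against pre-pubertal glands and between 20.4% and 38.7% in parous against lactating glands. It lay between 0% and 15% in pubertal against peri-pubertal, 1.35% and 18.1% in nulliparous against pubertal, 16.2% and 46.5% in lactating against pubertal and 0% and 0.237% in parous against nulliparous glands. No paired analysis was possible because the labels give the groups no shared replicate numbers.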
